A study of Mus musculus with 26 samples.

Results

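Polycomb repressive complex 2 (PRC2) was followed through 10 genes that encode its core and accessory subunits: *Ezh2*, *Ezh1*, *Eed*, *Suz12*, *Rbbp4*, *Mtf2*, *Phf1*, *Phf19*, *Jarid2* and *Aebp2*. They were chosen by gene symbol, and each of the 10 has 1 row in a table of 52454 gene symbols. RNA-seq was analysed in 10 libraries with 1 library per condition, and the other 16 samples of the series, which measured DNA methylation, were not analysed here. Values are FPKM, that is, reads divided by transcript length and by the number of mapped reads in the library, so levels of different genes can be compared per length.

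Fibroblasts made up 6 of the libraries. Of these, 2 were female 2i-MEFs with an F1 background of 129X1/SvJ and MSM/Ms, in which either *Dnmt3a* or *Dnmt3b* had been disrupted by CRISPR/Cas9 in ES cells kept under 2i/L conditions. The ES cells carried a GFP and neomycin transgene, were injected into ICR blastocysts, and the fibroblasts of the E14.5 chimeras were selected with G418 for 7 days and sorted for GFP to remove host cells. The other 4 were male MEFs of passage 1 from E14.5 embryos, labelled C57BL6 and *Dnmt3a* WT or *Dnmt3a* KO, each with DMSO or with GSK126, which inhibits the methyltransferase activity of EZH2 and was given at 10 µM for 2 days. According to the methods, WT and KO embryos came from crosses of heterozygous B6;129S4 mice with the *Dnmt3a* tm1Enl allele. The 4 tissue libraries were heart and liver of male mice at E14.5, either *Dnmt3a* WT with the number 4 or labelled *Dnmt3a* KO with the number 25, and heart and liver under one number may come from the same embryo. The paper lists a B6 background for the tissues whose DNA methylation it measured.

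PRC2 places methyl groups on lysine 27 of histone H3, a mark of silenced developmental genes. EZH2 or its paralog EZH1 carries the catalytic SET domain, but needs EED and SUZ12 for activity, while RBBP4 or its paralog RBBP7 binds histones. EED also recognises the trimethylated mark and so lets the complex act next to nucleosomes that already carry it. Accessory subunits define a pair of alternative forms: PRC2.1 holds one of the Polycomb-like proteins PHF1, MTF2 or PHF19, and PRC2.2 holds JARID2 and AEBP2. Dividing cells are known to favour EZH2, whereas EZH1 is known to persist in cells that have left the cycle.

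All 10 genes are protein-coding (GENCODE M21, GRCm38). The catalytic genes are *Ezh2* (chr6:47530139-47595341, minus strand) and *Ezh1* (chr11:101191115-101226463, minus). The other core genes are *Eed* (chr7:89954654-89980983, minus), *Suz12* (chr11:79993106-80034123, plus) and *Rbbp4* (chr4:129307100-129335370, minus). The Polycomb-like genes are *Mtf2* (chr5:108065674-108109004, plus), *Phf1* (chr17:26933052-26937908, plus) and *Phf19* (chr2:34893757-34914026, minus), and those of PRC2.2 are *Jarid2* (chr13:44729474-44921643, plus) and *Aebp2* (chr6:140622663-140678472, plus).

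*Ezh2* and *Eed* are known as targets of E2F factors, which drive genes of the cell cycle, and the promoter windows of the subunits were therefore searched for the letters TTTCCCGC, TTTCGCGC, TTTGCCGC and TTTGGCGC on both strands. These letters are versions of one E2F-type site, so any of them counts once. RefSeq windows (GRCm38.p6) from 250 bases before to 50 bases after the start were found for all 10 members, in 14 windows because some genes have several starts. Such letters stood in 3 of the 14 windows, those of *Ezh2*, *Suz12* and *Phf19* but not that of *Eed*, and in 744 of all 32851 windows of this length (2.265%). The 3 windows are printed with the letters in capitals, from 5′ to 3′ on the strand of the gene, beside the window of *Ezh1*, the alternative methyltransferase, which held none. The window of *Ezh2* is chr6:47594981-47595280 on the minus strand, with TTTGGCGC starting at base 4 after the start. *Suz12* is shown at chr11:79992856-79993155 on the plus strand, with TTTCCCGC from position -219. *Phf19* is shown at chr2:34913927-34914226 on the minus strand, with TTTCCCGC on the opposite strand from position -208, so that its reverse complement is in capitals. *Ezh1* is shown at chr11:101226414-101226713 on the minus strand.
Ezh2: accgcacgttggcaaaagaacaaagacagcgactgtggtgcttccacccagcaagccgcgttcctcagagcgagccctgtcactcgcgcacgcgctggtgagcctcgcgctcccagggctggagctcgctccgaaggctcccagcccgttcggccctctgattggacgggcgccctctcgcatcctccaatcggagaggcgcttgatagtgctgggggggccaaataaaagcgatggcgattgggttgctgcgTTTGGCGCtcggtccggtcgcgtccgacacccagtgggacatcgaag
Suz12: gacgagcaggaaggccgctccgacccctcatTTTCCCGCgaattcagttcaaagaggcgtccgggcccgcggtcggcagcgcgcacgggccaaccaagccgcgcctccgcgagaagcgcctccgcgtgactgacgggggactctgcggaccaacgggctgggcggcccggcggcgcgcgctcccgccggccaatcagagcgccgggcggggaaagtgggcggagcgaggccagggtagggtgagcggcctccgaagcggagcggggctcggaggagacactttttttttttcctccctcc
Phf19: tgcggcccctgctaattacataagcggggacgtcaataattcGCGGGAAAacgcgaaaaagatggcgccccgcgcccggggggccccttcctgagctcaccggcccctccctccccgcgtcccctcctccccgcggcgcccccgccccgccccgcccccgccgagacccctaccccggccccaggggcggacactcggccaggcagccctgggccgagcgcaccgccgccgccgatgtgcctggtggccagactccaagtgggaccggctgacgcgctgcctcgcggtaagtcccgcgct
Ezh1: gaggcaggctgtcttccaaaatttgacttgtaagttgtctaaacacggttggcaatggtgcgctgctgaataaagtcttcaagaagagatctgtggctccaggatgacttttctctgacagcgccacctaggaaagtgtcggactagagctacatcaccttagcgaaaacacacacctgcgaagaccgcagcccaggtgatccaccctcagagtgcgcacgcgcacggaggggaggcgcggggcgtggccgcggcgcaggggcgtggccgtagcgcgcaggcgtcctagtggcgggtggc
The 4 windows hold 31, 41, 38 and 23 CpG sites in that order, against a median of 7 over all windows. The window of *Rbbp4*, with 39 CpG sites, held none of the letters. Each version of the letters contains CG, so the share over all windows is not a matched background for windows this rich in CpG. A match of letters is a description and not a bound site, and no match says only that these letters are not in this window.

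Depth, estimated from the steps between low FPKM values, ranged from 9153470 to 26153795 reads per library. *Dnmt3a* went against its genotype label in MEFs and heart. WT MEFs held 26.1 (DMSO) and 19.3 FPKM (GSK126) of it, but those labelled *Dnmt3a* KO held 85.7 and 84.5 FPKM, and WT heart held 55 FPKM, but the heart labelled KO 125 FPKM. The values are per gene, so they do not check the deletion itself. *Pax8* is a transcription factor gene chosen after its values were seen. It was at 0.236 and 0.101 FPKM in WT MEFs (DMSO, GSK126) and at 4.24 and 6.92 FPKM in MEFs labelled KO. In 2i-MEFs it was at 16.6 FPKM with *Dnmt3a* KO and at 0.715 FPKM with *Dnmt3b* KO. By this gene the MEFs labelled KO lay on the side of the *Dnmt3a* KO 2i-MEFs. A gene picked in this way does not check the labels. The level of *Dnmt3a* followed the label in liver (53.5 and 12.7 FPKM) and in 2i-MEFs (4.21 FPKM in *Dnmt3a* KO, 23.9 FPKM in *Dnmt3b* KO). The libraries are therefore called by their label. All 6 fibroblast markers were present in each fibroblast library (summed level 5937 to 17355 FPKM). For tissues, sums are given in the order WT and KO label. The fibroblast markers summed to 1349 and 1361 FPKM in heart and to 494 and 257 FPKM in liver. The 6 cardiomyocyte markers summed to 20475 and 18573 FPKM in heart and to at most 60.5 FPKM elsewhere, and the 6 hepatocyte markers to 17970 and 10948 FPKM in liver and to at most 33.4 FPKM elsewhere. The 7 erythroid markers summed to 94325 and 128372 FPKM in liver, 27020 and 18516 FPKM in heart and at most 3.71 FPKM in fibroblasts, and the 3 endothelial markers to 135 and 131 FPKM in heart, 42.7 and 38.1 FPKM in liver and at most 2.59 FPKM in fibroblasts. All 4 macrophage markers were also detected in MEFs, at a sum of 834 to 1141 FPKM, against 19.5 FPKM (*Dnmt3a* KO) and 13.8 FPKM (*Dnmt3b* KO) in the sorted 2i-MEFs. In heart the macrophage markers summed to 44.0 and 38.8 FPKM, and in liver to 141 and 99.3 FPKM. In these bulk samples, fewer cells of a type and less RNA per cell cannot be told apart.

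The catalytic pair differed in how much it varied. *Ezh2* spanned 7.95-fold over the 10 libraries, while *Ezh1* spanned 2.04-fold. The lowest *Ezh2* value, that of WT MEFs with GSK126, equals 0.6 times its DMSO value after rounding, as described with the response to GSK126. Over the other 9 libraries *Ezh2* spanned 5.202-fold. *Ezh2* reached 21.9 FPKM (*Dnmt3a* KO) and 20.7 FPKM (*Dnmt3b* KO) in 2i-MEFs. WT MEFs held 18.8 FPKM with DMSO and 11.3 FPKM with GSK126, and MEFs labelled KO held 17.3 and 18.7 FPKM. The tissues were all higher, with 52.1 FPKM in WT heart, 42.9 FPKM in the heart labelled KO, 89.4 FPKM in WT liver and 89.9 FPKM in the liver labelled KO. Thus the fibroblasts, hearts and livers did not overlap for *Ezh2*, in this ascending order, as for 9.22% of the 16896 genes with at least 1 FPKM in any library. Among the members *Rbbp4* had the same order.

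*Ezh1* showed no such order. Its values in 2i-MEFs were 5.78 FPKM (*Dnmt3a* KO) and 4.93 FPKM (*Dnmt3b* KO), and in MEFs 5.15 FPKM (WT, DMSO), 5.90 FPKM (WT, GSK126), 6.56 FPKM (KO label, DMSO) and 6.51 FPKM (KO label, GSK126). It was at 3.21 FPKM in WT heart, 6.11 FPKM in the heart labelled KO, 5.32 FPKM in WT liver and 5 FPKM in the liver labelled KO. The lowest library was WT heart, and both livers lay within the range of the fibroblasts. As a share of the summed *Ezh1* and *Ezh2* level, *Ezh1* made up 19.2% to 34.3% in the fibroblasts, 5.81% in WT heart, 12.5% in the heart labelled KO, and 5.62% and 5.27% in liver. *Ezh2* thus exceeded *Ezh1* in every library, by 1.91-fold in WT MEFs with GSK126 up to 18.0-fold in the liver labelled KO. Without the *Ezh2* value of WT MEFs with GSK126, the lowest ratio was 2.64-fold and the highest share of *Ezh1* was 27.5%.

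**Figure D1:**
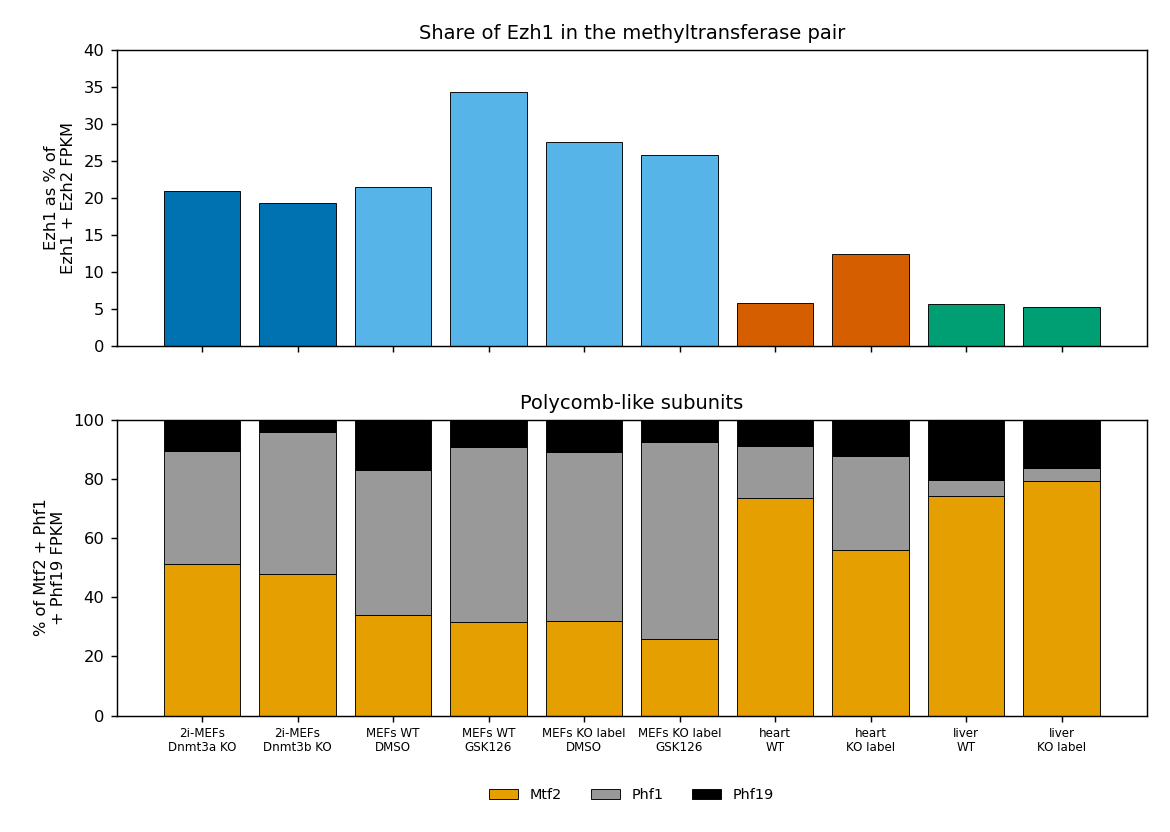
Top: *Ezh1* as a percentage of the summed FPKM of *Ezh1* and *Ezh2*, 1 bar per library. Bottom: percentages of *Mtf2*, *Phf1* and *Phf19* within their summed FPKM. *Ezh1* makes up at least 19.2% in each fibroblast library and at most 12.5% in tissues, and *Phf1* shrinks from 38.4% or more in fibroblasts to 5.27% or less in liver.

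Among the other core subunits, *Rbbp4*, the histone-binding subunit, was the most abundant of the 10 members in every library. It ranged from 74.1 to 112 FPKM in fibroblasts (median 78.9), and was at 114 FPKM in WT heart, 120 FPKM in the heart labelled KO, 205 FPKM in WT liver and 175 FPKM in the liver labelled KO. All tissues lay above all fibroblasts, although the highest fibroblast library, *Dnmt3a* KO 2i-MEFs, came close to WT heart. Its paralog *Rbbp7* was at 146 to 182 FPKM in fibroblasts, 201 and 208 FPKM in heart and 235 and 272 FPKM in liver, and *Rbbp4* made up 29.0% to 46.7% of the sum of the pair. Both genes also belong to other chromatin complexes, so their levels are not those of PRC2 alone.

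*Suz12*, which holds the core and the accessory subunits together, was at 18.0 and 18.4 FPKM in 2i-MEFs (*Dnmt3a* KO, *Dnmt3b* KO). In WT MEFs it was at 8.91 FPKM with DMSO and 11.5 FPKM with GSK126, and in those labelled KO at 15 and 16.1 FPKM. WT heart (16.8 FPKM) lay within the range of the fibroblasts and the heart labelled KO (21.3 FPKM) just above it, whereas the livers stood clear of the other libraries at 49.4 and 52.8 FPKM.

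*Eed*, the subunit that reads the mark, had a different order. It was at 48.0 and 32.8 FPKM in 2i-MEFs (*Dnmt3a* KO, *Dnmt3b* KO), 19.3 and 34.4 FPKM in WT MEFs with DMSO and GSK126, and 39.2 and 23.5 FPKM in the corresponding MEFs labelled KO. Heart was at 23.5 FPKM (WT) and 25.1 FPKM (KO label), inside the fibroblast range, and liver at 53.1 and 51.9 FPKM. Relative to *Ezh2*, the level of *Eed* was 1.02 to 3.04 times as high in fibroblasts and 0.45 to 0.594 times in tissues, so the gene with the higher level changed between them.

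**Figure D2:**
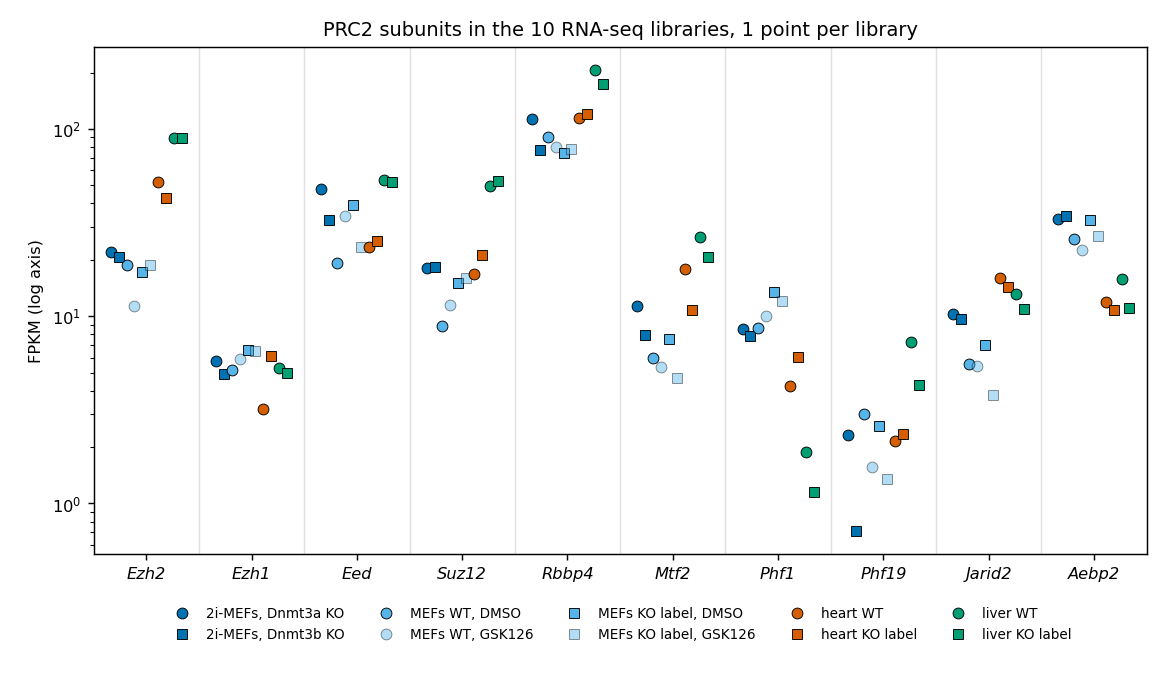
FPKM of each subunit on a log axis, 1 point per library and no error bars because no condition has a replicate. Both livers lie above the other 8 libraries for *Ezh2*, *Eed*, *Suz12*, *Rbbp4*, *Mtf2* and *Phf19* (24.3% of all genes), and below them for *Phf1* (22% of all genes).

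The Polycomb-like genes differed in their balance between MEFs and tissues. *Mtf2* was at 11.4 and 7.90 FPKM in 2i-MEFs, 6.01 and 5.36 FPKM in WT MEFs with DMSO and GSK126, 7.51 and 4.68 FPKM in MEFs labelled KO, 17.9 and 10.7 FPKM in heart (WT, KO label) and 26.6 and 20.7 FPKM in liver. *Phf1* was at 8.54 and 7.88 FPKM in 2i-MEFs, 8.61 and 10.0 FPKM in WT MEFs, 13.4 and 12.1 FPKM in MEFs labelled KO, 4.24 and 6.08 FPKM in heart and 1.88 and 1.1503 FPKM in liver. *Phf1* was the higher of these alternative members of PRC2.1 in all 4 MEF libraries and *Mtf2* in all 4 tissue libraries, while in 2i-MEFs *Mtf2* was higher in *Dnmt3a* KO and nearly equal to *Phf1* in *Dnmt3b* KO. *Phf1* was lower in each tissue library than in any fibroblast library, whereas *Mtf2* in the heart labelled KO lay below *Dnmt3a* KO 2i-MEFs. *Phf1* made up 38.4% to 66.7% of the summed *Mtf2*, *Phf1* and *Phf19* level in fibroblasts, 17.4% and 31.7% in heart, and 5.27% and 4.41% in liver. *Mtf2* made up 25.8% to 51.2% in fibroblasts, 73.7% and 56% in heart, and 74.3% and 79.2% in liver.

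*Phf19* was the least abundant subunit in fibroblasts and heart. It was at 2.33 and 0.711 FPKM in 2i-MEFs (*Dnmt3a* KO, *Dnmt3b* KO), 3.00 and 1.58 FPKM in WT MEFs with DMSO and GSK126, 2.58 and 1.36 FPKM in MEFs labelled KO, 2.17 and 2.35 FPKM in heart, and 7.30 and 4.27 FPKM in liver. Its annotated coding transcripts run from 351 to 3741 bases, so the lowest value stands for 1 to 23 reads and the highest for 30 to 677 reads, depending on the transcript. In liver *Phf1* took its place as the lowest of the 10, and both livers lay below the other 8 libraries for *Phf1*, as for 22% of all genes.

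Of the PRC2.2 subunits, *Jarid2*, which helps to bring PRC2 to its targets, was at 10.2 and 9.70 FPKM in 2i-MEFs and at 3.79 to 7.03 FPKM in MEFs. It was at 16 and 14.3 FPKM in heart and 13.1 and 10.9 FPKM in liver, above all fibroblasts, and it was the only member with its highest value in heart. *Aebp2*, which binds nucleosomes beside JARID2, was at 33.2 and 34.2 FPKM in 2i-MEFs and 22.6 to 32.8 FPKM in MEFs, but at 11.9 and 10.7 FPKM in heart and 15.9 and 11.1 FPKM in liver. The partners of PRC2.2 therefore had opposite orders, with tissues above fibroblasts for *Jarid2* and below them for *Aebp2*.

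Looked at by groups of libraries, a choice made after the values were seen, 6 of the 10 members were higher in both livers than in the other 8 libraries, as were 24.3% of the 16896 genes with at least 1 FPKM in any library. *Ezh2*, *Rbbp4* and *Jarid2* were higher in all 4 tissue libraries than in all 6 fibroblast libraries (15.4% of all genes), and *Phf1* and *Aebp2* were lower (17.8%). All 16 genes of a list of proliferation genes were also higher in both livers than in the other 8 libraries, and higher in the tissues than in the fibroblasts. Their summed level was 276 to 468 FPKM in fibroblasts, 1197 and 1190 FPKM in heart (WT, KO label) and 3679 and 3656 FPKM in liver. Liver was also the tissue with the highest erythroid and hepatocyte markers. The part of these genes in the levels of the subunits was not tested. The tissues also differ from the fibroblasts in culture and, from 2i-MEFs, in strain and sex, which cannot be told apart here.

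To compare conditions, the log2 ratio of FPKM + 1 was used, which understates differences of weakly expressed genes, and a gene was called when it differed at least 1.5-fold on this scale (0.58 in log2). Because each condition has 1 library, no difference could be set against a spread between replicates, and p-values are not given. Genes with at least 1 FPKM in 1 of the libraries compared were considered, and all 10 members passed in each of the 9 comparisons.

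**Figure D3:**
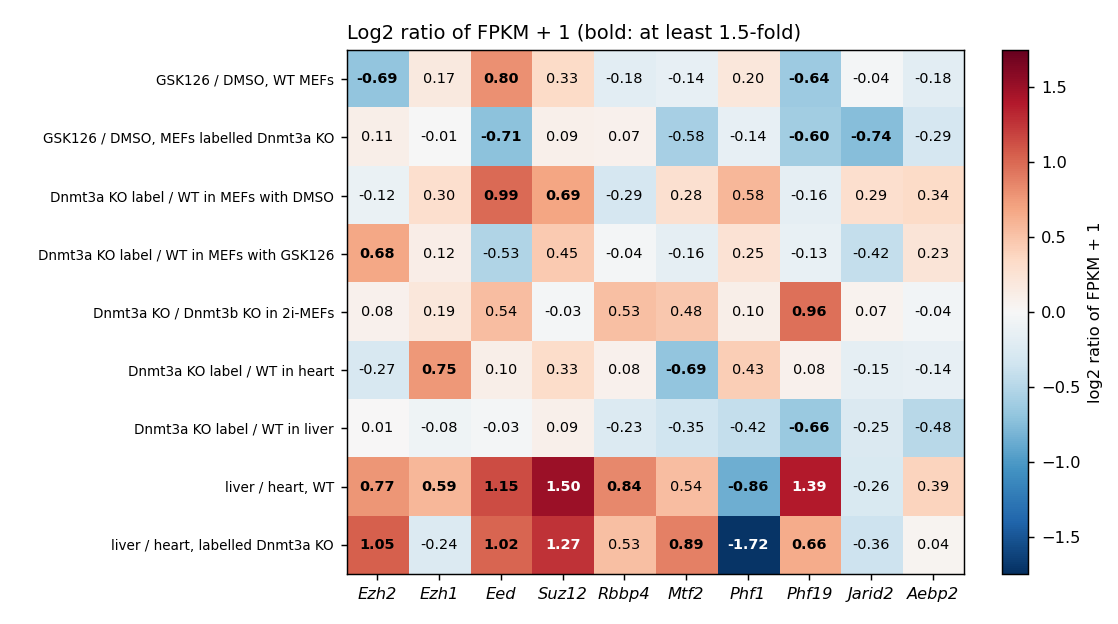
Log2 ratio of FPKM + 1 for the 10 subunits (columns) in the 9 comparisons (rows), with colour for direction and bold for at least 1.5-fold. The comparisons of liver with heart hold the largest values, from -1.72 to 1.504, and most other entries lie within 1.5-fold.

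Liver was compared with heart within each genotype label. Under the WT label 6 members were called higher in liver (32.4% of all genes) and *Phf1* was called lower (30% of all genes). The log2 ratios were 1.504 for *Suz12*, 1.39 for *Phf19*, 1.145 for *Eed*, 0.84 for *Rbbp4*, 0.77 for *Ezh2*, 0.59 for *Ezh1* and -0.86 for *Phf1*. Under the KO label, 5 members were called higher (30.4% of all genes) and again *Phf1* was lower (33.6% of all genes), with 1.27 for *Suz12*, 1.05 for *Ezh2*, 1.02 for *Eed*, 0.89 for *Mtf2*, 0.66 for *Phf19* and -1.72 for *Phf1*. *Ezh1* was at 3.21 FPKM in heart and 5.32 FPKM in liver under the WT label, but at 6.11 and 5 FPKM (log2 ratio -0.24) under the KO label, so its call rests on the low value in WT heart, and it was lost with ratios centred on the median of expressed genes. The 10 members had a median log2 ratio of 0.68 in WT and 0.59 under the KO label, against 0.09 and 0.00 over all genes. The 16 proliferation genes were all called higher in both comparisons, with medians of 1.63 and 1.60. The intervals that follow cover counting error only, under the longest coding transcript. *Suz12* under the WT label was 2.95-fold higher in FPKM itself (95% interval 2.77 to 3.13), and *Phf1* was 0.444 times as high (0.35 to 0.564).

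GSK126 was compared with DMSO to see whether the subunits responded to inhibition of the enzyme. In WT MEFs, *Eed* was called higher (6.28% of all genes) and *Ezh2* and *Phf19* were called lower (5.17% of all genes). *Eed* was at 19.3 FPKM with DMSO and 34.4 FPKM with GSK126 (log2 ratio 0.80), a fold of 1.78 in FPKM with a counting interval of 1.62 to 1.96. *Ezh2* was at 18.8 and 11.3 FPKM (-0.69), a fold of 0.60 with an interval of 0.539 to 0.668. Its GSK126 value equals 0.6 times its DMSO value within rounding, as described below, so this interval may not apply to it. *Phf19* was at 3.00 and 1.58 FPKM (-0.64), a fold of 0.524 with an interval of 0.411 to 0.668. The last interval assumes the longest coding transcript, and under the shortest one, with 8 and 5 reads, it runs from 0.149 to 2.01. The other 7 members had log2 ratios from -0.18 (*Aebp2* and *Rbbp4*) to 0.33 (*Suz12*), and *Ezh1* was at 5.15 and 5.90 FPKM.

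In MEFs labelled *Dnmt3a* KO, no member was called higher with GSK126 (6.03% of all genes), and *Jarid2*, *Eed* and *Phf19* were called lower (10.4% of all genes). *Jarid2* was at 7.03 FPKM with DMSO and 3.79 FPKM with GSK126 (-0.74), *Eed* at 39.2 and 23.5 FPKM (-0.71), and *Phf19* at 2.58 and 1.36 FPKM (-0.60). The GSK126 value of *Eed* equals 0.6 times its DMSO value within rounding, as described below. Under the longest coding transcript the counting intervals of the fold were 0.482 to 0.602 for *Jarid2* and 0.414 to 0.669 for *Phf19*. Under the shortest, with 27 and 12 reads for *Jarid2* and 10 and 4 reads for *Phf19*, they were 0.248 to 1.099 and 0.111 to 1.68, and both include no difference. *Mtf2*, at 7.51 and 4.68 FPKM, had a ratio of -0.58 that lay just inside the threshold. *Ezh2* was at 17.3 and 18.7 FPKM (0.11), so its lower value in the WT pair had no counterpart here. The members had a median of -0.22, against -0.04 for all genes, and in WT MEFs of -0.09 against 0.00.

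**Figure D4:**
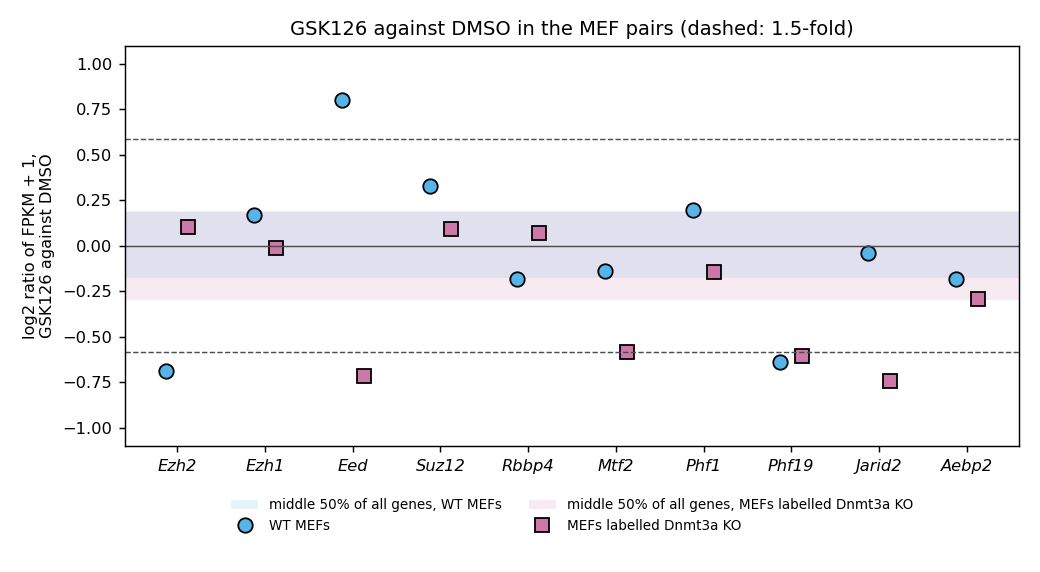
Log2 ratio of FPKM + 1 between GSK126 and DMSO for each subunit in WT MEFs (circles) and in MEFs labelled *Dnmt3a* KO (squares), with shaded bands for the middle 50% of all genes and dashed lines at 1.5-fold. *Phf19* lies below the lower line in both, at -0.64 and -0.60, and *Eed* lies beyond opposite lines, at 0.80 and -0.71. The GSK126 values of *Ezh2* in WT MEFs and of *Eed* in MEFs labelled KO equal 0.6 times their DMSO values within rounding.

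The MEF pairs share no library. *Phf19* alone among the members was called in the same direction in both, lower with GSK126 (1.35% of all genes), and no member was called higher in both (1.61% of all genes). With ratios centred on the median of expressed genes, *Phf19* fell short of the threshold in the pair labelled KO. *Eed* was called in opposite directions (1.18% of all genes), because the WT library with DMSO and the library labelled KO with GSK126 were its lowest values in MEFs. That the pairs differ was not tested. Proliferation genes had ratios below 0 with GSK126 for 15 of 16 in WT MEFs and 16 of 16 in MEFs labelled KO. Of the 16, 7 were called lower in WT MEFs (median -0.55) and 10 of 16 in MEFs labelled KO (median -0.64), 6 of them in both, and none was called higher. In WT MEFs with DMSO and GSK126, *Mki67* was at 17.3 and 10.4 FPKM, *Top2a* at 41.2 and 21.2 FPKM, *Cdk1* at 86.8 and 51.4 FPKM and *Ccnb1* at 12.6 and 5.67 FPKM, genes of mitosis. *Mcm2*, *Mcm5* and *Pcna*, genes of DNA replication, were at 34.1 and 33.2 FPKM, 19.8 and 13.2 FPKM, and 33.9 and 28.7 FPKM. In MEFs labelled KO, these replication genes were at 34.2 and 21.7 FPKM, 15.8 and 8.73 FPKM, and 31.2 and 25.9 FPKM. Of 6 fibroblast markers, 5 had ratios below 0 and 2 were called lower in each pair (medians -0.38 in WT MEFs and -0.45 in MEFs labelled KO). The macrophage markers summed to 1107 and 1141 FPKM in WT MEFs, and 0 of 4 were called in either pair. Cardiomyocyte, erythroid and endothelial markers were low in WT MEFs. Of these low markers with at least 1 FPKM, 2 of 2 cardiomyocyte markers were called higher (summed level 1.79 and 9.05 FPKM). Lower calls fell on 2 of 2 erythroid (3.71 and 1.29 FPKM) and 1 of 1 endothelial markers (2.59 and 1.59 FPKM). The part of these genes in the values of *Ezh2* and *Phf19* was not tested.

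A property of the deposited values bears on 2 of these calls. The value of *Ezh2* in WT MEFs with GSK126 (11.3066 FPKM) equals 0.6 times its value with DMSO (18.8443 FPKM) to all 6 digits of the table. In the pair labelled *Dnmt3a* KO, the value of *Eed* with GSK126 (23.5309 FPKM) likewise equals 0.6 times its value with DMSO (39.2181 FPKM). Multiples of 0.1 between 0.1 and 3.0, with 1.0 left out, were searched among genes that reached 5 FPKM in each of the libraries compared. *Ezh2* was the only such gene of 9039 in the WT pair, *Eed* was 1 of 4 among 9073 genes in the pair labelled KO, and no other member matched in any of the 9 comparisons. Genes other than members matched for the KO label in MEFs too, 1 of 9028 with DMSO and 2 of 8968 with GSK126. Each comparison of 2i-MEFs, heart and liver held 0 matches. The origin of these equalities was not tested, and no read counts were at hand to set beside them. Leaving out both values removes their calls by construction, and with them the call of *Eed* in opposite directions. The calls that remained were 2 in each pair, *Eed* and *Phf19* in WT MEFs and *Jarid2* and *Phf19* in MEFs labelled KO. The highest share of *Ezh1* (34.3%), the lowest ratio of *Ezh2* to *Ezh1* (1.91), the 7.95-fold span of *Ezh2* and the highest ratio of *Eed* to *Ezh2* (3.04, or 2.27 without both values) also rest on this value of *Ezh2*.

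The genotype label was compared in MEFs within each treatment. These comparisons share libraries with those of GSK126, so they are not independent of them. With DMSO, *Eed* (19.3 FPKM in WT, 39.2 FPKM under the KO label, log2 ratio 0.99) and *Suz12* (8.91 and 15 FPKM, 0.69) were called higher in the library labelled KO (11.9% of all genes), and no member was called lower (6.56% of all genes). *Phf1*, at 8.61 and 13.4 FPKM, lay just inside the threshold with 0.58. The WT library with DMSO held the lowest value of all 10 libraries for both *Eed* and *Suz12*. With GSK126, *Ezh2* (11.3 and 18.7 FPKM, 0.68) was called higher (7.58% of all genes) and none was called lower (8.43% of all genes), while *Eed* was at 34.4 and 23.5 FPKM (-0.53). No member was thus called under both treatments. The call of *Ezh2* rests on the value that equals 0.6 times its DMSO value. Macrophage markers were below 0 for 4 of 4 under the KO label, with 2 called lower under each treatment (medians -0.58 with DMSO and -0.57 with GSK126), and fibroblast markers for 6 of 6, with 0 and 1 called lower (medians -0.43 and -0.54). With DMSO, among markers with at least 1 FPKM, 2 of 2 erythroid (median -0.94) and 1 of 1 endothelial markers (-1.47) were also called lower under the KO label, and 1 of 1 cardiomyocyte markers (1.57) was called higher, all in lists that summed to at most 7.29 FPKM in these libraries. Their part in the values of the subunits was not tested. The direction of these differences rests on labels against which the *Dnmt3a* level went. *Pax8* set the MEFs labelled KO with the *Dnmt3a* KO 2i-MEFs, but it was picked after its values were seen and does not check the labels.

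In heart, *Ezh1* was called higher in the library labelled KO (6.12% of all genes) and *Mtf2* was called lower (5.41% of all genes). *Ezh1* was at 3.21 FPKM (WT) and 6.11 FPKM (KO label), a log2 ratio of 0.75 and a fold of 1.901 with a counting interval of 1.61 to 2.24. *Mtf2* was at 17.9 and 10.7 FPKM (-0.69), a fold of 0.599 with an interval of 0.544 to 0.659. *Ezh2* was at 52.1 and 42.9 FPKM (-0.27). The *Dnmt3a* level went against the label in this pair too. *Pax8* was listed at 0 in both hearts, and DNA methylation was not analysed here, so no other measure of this label was used. Erythroid markers had ratios below 0 for 7 of 7, with 4 called lower (summed level 27020 FPKM in WT and 18516 FPKM under the KO label), and the 4 hepatocyte markers with at least 1 FPKM were all called lower (33.4 and 7.27 FPKM). The part of these cells in the values of *Ezh1* and *Mtf2* was not tested.

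In liver, where *Dnmt3a* followed the label, no member was called higher under the KO label (3.47% of all genes) and *Phf19* was called lower (7.44% of all genes), at 7.30 FPKM in WT and 4.27 FPKM (-0.66). Its fold of 0.585 had a counting interval of 0.515 to 0.664 under the longest coding transcript and 0.299 to 1.08 under the shortest. The median over all genes was -0.08 in this comparison, and with ratios centred on expressed genes *Phf19* was no longer called. Markers also differed in this pair: of fibroblast markers 4 of 6 were called lower (median -0.65), of cardiomyocyte markers 3 of 3, of hepatocyte markers 2 of 6 (summed level 17970 FPKM in WT and 10948 FPKM under the KO label) and of macrophage markers 1 of 4, while 2 of 7 erythroid markers were called higher (94325 and 128372 FPKM). Their part in the value of *Phf19* was not tested. *Ezh2*, *Ezh1*, *Eed* and *Suz12* had log2 ratios between -0.08 and 0.09, so the enzymes and both obligate partners lay close together in these livers, with no replicate to give the spread.

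In 2i-MEFs, *Dnmt3a* KO was compared with *Dnmt3b* KO, since a WT library was not analysed here. *Phf19* was called higher in *Dnmt3a* KO (12.5% of all genes), at 2.33 against 0.711 FPKM (log2 ratio 0.96), and no member was called lower (8.87% of all genes). The fold of 3.27 in FPKM had a counting interval of 2.06 to 5.44 under the longest coding transcript, with 90 and 23 reads, but of 0.332 to 165 under the shortest, with 4 and 1 reads. *Eed*, *Rbbp4* and *Mtf2* had ratios of 0.54, 0.53 and 0.48, under the threshold, while *Ezh2* was at 0.08. The proliferation genes had a median of 0.20, with 2 of 16 called higher in *Dnmt3a* KO.

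Beyond the 10 members, 7 of 8 listed symbols of genes linked to PRC2 were found, *Rbbp7*, *Epop*, *Lcor*, *Lcorl*, *AU022751*, *Kdm6a* and *Kdm6b*. *AU022751*, named *Ezhip* in RefSeq, encodes an inhibitor of EZH2 that is known from germ cells. In 2i-MEFs its level was 0.391 FPKM with *Dnmt3a* KO (7 to 9 reads) and 11.7 FPKM with *Dnmt3b* KO (176 to 214 reads). It was listed at 0 in all 4 MEF libraries, and reached at most 0.277 FPKM in tissues. Its level in *Dnmt3a* KO was 0.0335 times that in *Dnmt3b* KO, with a counting interval of 0.0159 to 0.0683. It lies on the X chromosome from 6081219 to 6083419 (GRCm38, minus strand), and the 2i-MEFs are the female libraries of the series. In the *Dnmt3b* KO library, where it was high, *Ezh2*, *Suz12* and *Eed* were at 20.7, 18.4 and 32.8 FPKM, inside or next to the range of the other fibroblasts.

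*Epop*, an accessory subunit of PRC2.1, was at 1.47 to 4.22 FPKM in the 10 libraries, and *Lcor* and *Lcorl*, whose loci also encode PRC2.1 partners, at 0.456 to 1.71 and 2.304 to 6.46 FPKM. *Kdm6a* and *Kdm6b* encode demethylases that remove the mark of PRC2, and they had opposite orders between tissues. *Kdm6a* was at 6.77 and 7.12 FPKM in heart and 14.8 and 13.2 FPKM in liver (log2 ratios 1.02 and 0.80), whereas *Kdm6b* was at 16.1 and 17.9 FPKM in heart and 4.87 and 4.07 FPKM in liver (-1.54 and -1.89). Of the listed genes with at least 1 FPKM, 0 of 5 were called with GSK126 in WT MEFs (6.28% of all genes higher and 5.17% lower), and in MEFs labelled KO 1 of 5 was called lower (10.4% of all genes), *Lcorl*, at 6.46 FPKM with DMSO and 3.06 FPKM with GSK126. *Lcorl* and *Kdm6a* were called higher under the KO label in MEFs with DMSO (0.77 and 0.80, with 11.9% of all genes called higher), and no listed gene was called for the label in MEFs with GSK126, in heart or in liver. The shares of all genes called higher or lower there were 7.58% and 8.43%, 6.12% and 5.41%, and 3.47% and 7.44%, so counts of 0 among 5 or 6 genes lie near them.

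Genes with the pattern most like *Ezh2* over the 10 libraries were *Pbk* (Pearson's r = 0.991), *Myg1* (0.99), *Mrpl40* (0.99), *Fam136a* (0.99) and *Suv39h2* (0.988), among 12665 genes with at least 5 FPKM in any library. *Pbk* was at 4.66 to 11.2 FPKM in fibroblasts, 19.3 and 17.7 FPKM in heart and 32.3 and 35.4 FPKM in liver. Among the members, the correlation with *Ezh2* was 0.93 for *Mtf2*, 0.92 for *Rbbp4*, 0.87 for *Suz12*, 0.74 for *Jarid2*, 0.71 for *Phf19*, 0.38 for *Eed*, -0.44 for *Ezh1*, -0.78 for *Aebp2* and -0.94 for *Phf1*. *Ezh1* was most like *Hps1* (0.854), *Irf2* (0.847), *Gm27786* (0.84), *Eml3* (0.832) and *Tmed5* (0.821), genes that are also low in WT heart: *Hps1* was at 3.01 FPKM there and at 10.2 to 15 FPKM in the other libraries. These correlations describe 10 libraries that share tissues, labelled numbers and culture conditions, and no test was made of them. Over the 9 libraries without WT MEFs with GSK126, the correlation of *Ezh2* with the same 5 genes was highest for *Fam136a* (0.995), followed by *Pbk* (0.992), *Mrpl40* (0.992), *Myg1* (0.99) and *Suv39h2* (0.989), so their order depends on that library.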

How the data were processed

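RNA was sequenced from poly(A)-selected, strand-specific libraries as single reads of 75 bases. The authors mapped the reads to mm10 with tophat and Bowtie2 on GENCODE M15, kept uniquely mapped reads whose MAPQ reached 20, and deposited FPKM values of cufflinks, 1 per gene and library. Their methods give cutadapt 1.15, tophat 2.1.1, Bowtie2 2.3.2 and cufflinks 2.2.1, whereas the submitters' processing notes list cutadapt 1.9.1, TopHat2 2.1.0, Bowtie2 2.2.5 and 2.2.8, and Cufflinks 2.2.1. Reads of 2i-MEFs were thus mapped to a genome of another strain, which could lower values where alleles differ. *Rbbp4* and *Rbbp7* are paralogs, and reads that fit both were left out by the filter on unique reads.

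Gene FPKM sums over annotated transcripts. Rows of the same symbol were summed (155 of 52609 rows repeat a symbol, none of a member). Depth was estimated from low values of single-transcript genes, 97.9% to 99.1% of which were whole reads within 0.1, against at most 13.4% at wrong depths, and was tested on simulated data. Reads of a gene were taken from its shortest and longest coding transcript in GENCODE M21 with fragments of 196 bases, and exact binomial intervals (95%) were derived from them. They cover counting error only.

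Ratios were calculated as log2(FPKM + 1), with calls at 1.5-fold. Alternatives were a pseudocount of 0.1, centring on the median of expressed genes, calls at 2-fold, no filter on low values, and the row with the highest mean. Leaving out the 2 values equal to 0.6 times their paired value, and a pseudocount of 0.1 for the genes linked to PRC2, were chosen after seeing the data. Named genes are all members, the genes linked to PRC2, 7 proliferation genes, the 5 genes most like *Ezh2* and *Ezh1* by Pearson correlation, and *Dnmt3a*, *Dnmt3b* and *Xist* as checks of the labels. *Pax8*, *E2f2*, *E2f4* and *E2f6* fall outside this rule and were named after their values were seen. The members and the lists (genes linked to PRC2, proliferation, E2F and pocket proteins, and markers of fibroblasts, cardiomyocytes, hepatocytes, erythroid, endothelial cells and macrophages) were chosen with earlier results of these data known. *Xist* was at 27.9 and 32.1 FPKM in 2i-MEFs and at most 0.1 FPKM elsewhere, and the level of *Dnmt3b* in them was 1.81 FPKM (*Dnmt3a* KO) and 0.817 FPKM (*Dnmt3b* KO). Python 3.11.15, numpy 2.4.6, pandas 2.3.3, scipy 1.17.1 and matplotlib 3.10.9 were used.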

Additional observations from a re-analysis of the deposited data

Results flagged for a closer look

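*Eed* had opposite log2 ratios of GSK126 to DMSO in the MEF pairs, 0.8 in WT and -0.71 in MEFs labelled *Dnmt3a* KO. The difference between the pairs was not tested, because each has 1 library per treatment. The value in the pair labelled KO with GSK126 equals 0.6 times its DMSO value to all 6 digits of the table, and *Ezh2* in the WT pair shows the same equality. Neither could be set beside read counts here.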

How the results depend on the processing

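No call of a member changed direction under any alternative. With calls at 2-fold in place of 1.5-fold, the number of members called went to 0 for GSK126 in both MEF pairs, for members called in the same direction in both pairs, for the KO label in MEFs under both treatments, in heart and in liver, and in 2i-MEFs, and from 7 to 3 for liver against heart under the WT label. For the KO label in liver, a pseudocount of 0.1 gave 2 members (*Phf1* was added) and centring gave 0 (*Phf19* was lost). The same pseudocount added *Mtf2* for GSK126 in MEFs labelled KO (3 to 4) and *Phf1* for the KO label in MEFs with DMSO (2 to 3), and calls at 2-fold lost *Mtf2* and *Phf19* for liver against heart under the KO label (6 to 4). Centring also left 0 members called in the same direction in both MEF pairs. Without the values equal to 0.6 times their paired value, the KO label in MEFs with GSK126 had 0 called members in place of 1. That count was fixed in advance, because *Ezh2* was the only called member. The span of *Ezh2* over the libraries went from 7.95-fold to 5.202-fold. The share of all genes called fell without a filter on low values, for example from 11.5% to 3.43% for GSK126 in WT MEFs, because unexpressed genes were added. Single ratios moved by more than 0.1 in 35 cases with the lower pseudocount (118 did not) and in 10 with centring (80 did not). Summing rows of a symbol or taking the highest row could make no difference to the members, because each has 1 row. No condition has a replicate, so none could be left out. Depth limits the weakest genes, chiefly *Phf19*, whose lowest value may stand for as little as 1 read, and *Jarid2*.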

Other observations

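Genes of E2F factors and pocket proteins, which control genes of the cell cycle, had their highest summed level in liver. The 11 listed genes summed to 85.3 to 98.7 FPKM in the fibroblasts, 126 and 124 FPKM in heart (WT, KO label) and 522 and 539 FPKM in liver. Most of the liver sums came from *E2f2* and *E2f4*. *E2f2*, known for its role in maturing red cells, was at 0.637 to 1.89 FPKM in fibroblasts, 6.02 and 4.01 FPKM in heart and 141 and 188 FPKM in liver, and *E2f4* was at 18.3 to 27.9 FPKM in fibroblasts, 24.3 and 23.7 FPKM in heart and 224 and 197 FPKM in liver. *E2f6*, a repressor that binds Polycomb proteins, had its highest values in heart instead, at 31.4 and 33.0 FPKM against 26.2 and 24.4 FPKM in liver. In each comparison of liver with heart, 7 of the 11 were called higher and 0 lower, with 32.4% (WT) and 30.4% (KO label) of all genes called higher. Of the 11 ratios, 9 lay above 0 and 2 below 0 in each of these comparisons. With GSK126, 1 of 11 was called lower in each MEF pair and 0 higher, with 5.17% (WT) and 10.4% (KO label) of all genes called lower. These genes were named after their values were seen, and no condition has a replicate.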
